A study of Mus musculus with 13 samples.

Results

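The nuclear genes that copy and read the mitochondrial genome were examined in whole parametrial white adipose tissue (pmWAT) after deletion of *Lmna*, the gene for lamins A and C, in adult adipocytes. The 10 members were chosen by their known role, with earlier results of these data known, and matched by Ensembl identifier. All 10 were among the 33618 genes of the deposited count table. They are *Polg*, *Polg2*, *Twnk*, *Ssbp1*, *Tfam*, *Polrmt*, *Tfb2m*, *Tfb1m*, *Tefm* and *Lrpprc*. The transcripts mt-Nd1, mt-Co1 and mt-Nd5, which the mitochondrial genome itself encodes, served as context.

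RNA-Seq libraries came from 7 female fl/fl mice and 6 female iADKO mice, 1 library per mouse. The fl/fl controls were *Lmna* fl/fl without Cre, and the iADKO mice were *Lmna* fl/fl with Adipoq-CreERT2+/-, in which loxP sites flank exons 10 and 11. Both genotypes received tamoxifen at 50 mg/kg on 5 consecutive days from 12 to 14 weeks of age, and tissue was taken 2 weeks posttamoxifen. Controls thus carried the floxed alleles and the tamoxifen but not the Cre, so that an effect of the Cre and an effect of losing *Lmna* cannot be told apart. Adipoq drives the Cre in adipocytes, whereas each library holds RNA of every cell in the depot, and fewer adipocytes and less RNA per adipocyte cannot be told apart.

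Mitochondrial DNA (mtDNA) is a small circular genome kept in many copies per cell and packed into nucleoids by TFAM. It encodes subunits of the respiratory chain together with the rRNAs and tRNAs needed to translate them, and all of the enzymes that copy, transcribe and stabilize it are imported from the cytosol. POLG with its accessory subunit POLG2 copies the DNA, TWNK unwinds it and SSBP1 coats the single strands. POLRMT transcribes it after TFAM and TFB2M open the promoter, TEFM keeps the polymerase moving, TFB1M methylates the small ribosomal RNA and LRPPRC, in complex with SLIRP, protects the finished mRNAs. White adipocytes rely on this genome for the respiratory chain that supports fatty acid synthesis and adipokine secretion.

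Between 18854223 and 19776491 reads per library were counted on genes. Values are given as CPM, counts scaled to a common library size, after TMM normalization, and 16753 genes passed edgeR's filter on low counts and were tested with its quasi-likelihood test. At a Benjamini-Hochberg adjusted p under 0.05, 5104 genes differed between genotypes, 30.5% of those tested, with 16.3% lower and 14.1% higher in iADKO. *Lmna* averaged 84.7 ± 7.51 CPM in the 7 fl/fl mice and 96.7 ± 11.5 CPM in the 6 iADKO mice, where ± gives the SD between mice here and below, with a log2 fold change of 0.19 (SE 0.079, edgeR adjusted p = 0.0785). The counts cover the whole gene and not the floxed exons alone, so this level does not check the labels and every direction below rests on them. All 8 adipocyte markers were lower in iADKO, and their summed level was 16317 to 25182 CPM in fl/fl and 10441 to 17958 CPM in iADKO. Of 9 macrophage markers 6 were higher, with summed levels of 1954 to 5195 CPM and 3019 to 5195 CPM.

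All 10 members passed the filter, with between 79 and 1787 reads per library. In the libraries labelled iADKO 4 of 10 were lower, against 16.3% of all genes tested, and 0 were higher, against 14.1%. At an unadjusted p under 0.05 in edgeR, 5 were lower, the 4 and *Tfam*, against 21.2% of all genes, and 0 were higher, against 21.4%. DESeq2 also had 0 members higher at either threshold. Because the members were chosen with earlier results of these data known, these shares are descriptions. *Tfb2m* and *Tefm* of the transcription machinery, the RNA-binding protein gene *Lrpprc* and the polymerase gene *Polg* were the 4, with levels 12.5% to 22.3% below fl/fl. The other 6 did not pass the test, and 8 of 10 log2 fold changes were negative. The median log2 fold change of the members was -0.18 and that of all genes tested was 0.03. Both carry the TMM factors, 0.892 to 1.02 in fl/fl and 1.05 to 1.10 in iADKO, which did not overlap between genotypes. So do all CPM values below and the order of mice read from them. Without iADKO replicate 2 the members' median was -0.11, and it was -0.09 with a macrophage score and -0.0003 with an adipocyte score as a covariate. These differences were small beside those of the mtDNA-encoded transcripts, whose means were 33.7% to 41.2% lower.

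**Figure D1:**
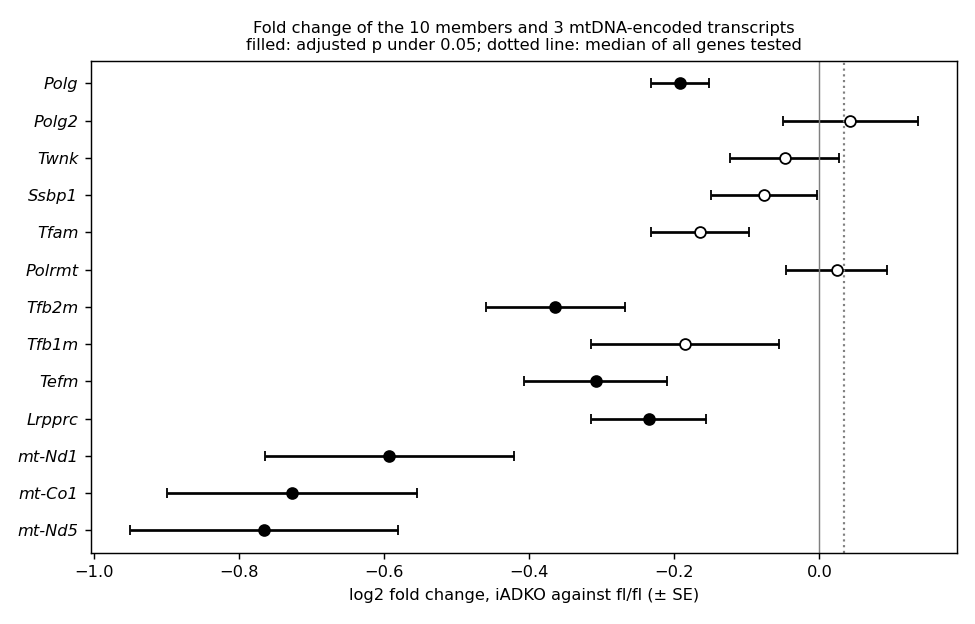
The log2 fold change of iADKO against fl/fl is on the horizontal axis for each member and for mt-Nd1, mt-Co1 and mt-Nd5, with bars for the standard error and filled points for an adjusted p under 0.05. The 4 filled members lie between -0.36 and -0.19 and the 3 mtDNA-encoded transcripts between -0.77 and -0.59.

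Per kilobase of the canonical transcript, the members covered a range from 2.03 to 13.6 CPM per kb in fl/fl. The order below rests on this annotated length, and which transcripts were in use was not examined. *Lrpprc* was highest at 13.6 ± 1.39 CPM per kb, followed by *Polg* at 11.6 ± 0.336 and *Tfb2m* at 11.2 ± 0.867 CPM per kb. *Polg* and *Tfb2m* lay within the spread of each other. A middle group held *Tfam* at 7.13 ± 0.596 CPM per kb and *Polrmt* at 6.63 ± 0.679 CPM per kb, which also lay within each other's spread. *Twnk* was at 5.46 ± 0.502 CPM per kb, *Polg2* at 5.31 ± 0.575, *Tefm* at 4.70 ± 0.68 and *Ssbp1* at 4.57 ± 0.337 CPM per kb, each within the spread of its neighbour in this order. *Tfb1m* was lowest at 2.03 ± 0.241 CPM per kb, below the range of every other member.

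*Polg* encodes the catalytic subunit of the mtDNA polymerase and is found at chromosome 7, 79095974 to 79116110, minus strand, in GRCm39 coordinates, the build of all positions here. The fl/fl mice, replicates 1 to 7, had 93.7, 87.6, 94.4, 90.0, 90.4, 87.7 and 90.6 CPM. The iADKO mice, replicates 1 to 6, had 78.6, 82.4, 81.2, 80.0, 80.5 and 73.2 CPM. Every iADKO mouse was below every fl/fl mouse, which held for 3.93% of all genes tested and for no other member. This separation came only with the TMM factors, 0.892 to 1.02 in fl/fl and 1.05 to 1.10 in iADKO. Raw reads on *Polg* were 1589 to 1787 per library in fl/fl and 1491 to 1767 in iADKO. *Polg* averaged 90.6 ± 2.64 CPM in fl/fl and 79.3 ± 3.25 CPM in iADKO, with a log2 fold change of -0.19 (SE 0.040, edgeR adjusted p = 0.00336). *Fanci* on the opposite strand shares 10.5% of the canonical *Polg* transcript.

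The other genes of the replication fork did not pass the test. *Polg2*, the processivity subunit, was at 6.98 to 9.71 CPM in fl/fl (median 8.01) and 7.24 to 9.97 CPM in iADKO (median 8.22), with a log2 fold change of 0.04 (SE 0.093, edgeR adjusted p = 0.753). *Twnk*, the helicase, ranged from 15.9 to 21.2 CPM in fl/fl (median 20.1) and from 17.2 to 21.8 CPM in iADKO (median 18.5), with a log2 fold change of -0.05 (SE 0.075, edgeR adjusted p = 0.654). *Ssbp1*, the single-strand binding protein, ranged from 20.5 to 25.8 CPM and from 18.2 to 24.8 CPM, with a log2 fold change of -0.08 (SE 0.073, edgeR adjusted p = 0.445). The ranges of the genotypes overlapped for all 3 genes. *Mrpl43* on the opposite strand shares 20.7% of the canonical *Twnk* transcript, and the strand setting of the counting is not given in the sources used here.

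*Tfb2m* encodes the factor that melts the mitochondrial promoter for POLRMT and is found at chromosome 1, 179355610 to 179374548, minus strand. It was at 33.9, 37.5, 34.3, 30.8, 29.9, 33.1 and 31.7 CPM in fl/fl replicates 1 to 7. The iADKO mice, replicates 1 to 6, had 21.5, 23.6, 27.5, 21.3, 27.7 and 32.5 CPM. Of the 6 iADKO mice 5 lay below every fl/fl mouse, and replicate 6 lay within the fl/fl range. The mean fell from 33.0 ± 2.56 to 25.7 ± 4.36 CPM, the largest fold change among the members though not the largest difference in CPM, with a log2 fold change of -0.36 (SE 0.095, edgeR adjusted p = 0.0114). *Cnst* on the opposite strand shares 10.9% of the canonical *Tfb2m* transcript. A stretch of chromosome 12 matches 73.4% of that transcript at 99.6% identity. The annotated gene there that is in the table, *Gm1818*, had 1 to 6 reads per library against 442 to 684 for *Tfb2m*, although reads that fit both places may have been dropped from either.

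*Tefm*, the elongation factor, is found at chromosome 11, 80027498 to 80033839, minus strand. It was at 11.8, 11.1, 10.2, 11.4, 7.74, 8.94 and 9.65 CPM in fl/fl replicates 1 to 7. The iADKO mice, replicates 1 to 6, had 8.03, 7.32, 8.42, 8.11, 8.505 and 8.64 CPM. The iADKO values were close together, whereas fl/fl replicate 5 lay among them, so that only 1 of 6 iADKO mice was below every fl/fl mouse. The log2 fold change was -0.31 (SE 0.098, edgeR adjusted p = 0.029). Without fl/fl replicate 1, 2 or 4 or iADKO replicate 1, 2 or 4 the call was lost, and over the 13 fits that each left out 1 mouse the adjusted p ran from 0.00398 to 0.066. *Gm73212* on the opposite strand shares 4.09% of the canonical *Tefm* transcript.

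*Tfam*, which both packs mtDNA and starts its transcription, was at 28.9, 27.6, 29.0, 34.9, 28.6, 28.3 and 30.9 CPM in fl/fl replicates 1 to 7. The iADKO mice, replicates 1 to 6, had 26.2, 23.4, 26.8, 26.3, 26.0 and 30.5 CPM. Of the 6 iADKO mice 5 lay below every fl/fl mouse, but replicate 6 lay within the fl/fl range. These positions came only with the TMM factors. Raw reads on *Tfam* were 502 to 650 per library in fl/fl and 501 to 621 in iADKO. The log2 fold change of -0.16 (SE 0.068, edgeR adjusted p = 0.0788) did not pass the threshold. Without iADKO replicate 6 the adjusted p was 0.0237.

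*Polrmt*, the RNA polymerase itself, averaged 24.9 ± 2.56 CPM in fl/fl and 25.3 ± 1.32 CPM in iADKO. Its log2 fold change of 0.02 (SE 0.070, edgeR adjusted p = 0.818) turned to -0.02 without fl/fl replicate 5, the lowest mouse at 19.99 CPM. *Tfb1m*, the rRNA methyltransferase, ranged from 5.26 to 7.41 CPM in fl/fl and from 3.69 to 6.59 CPM in iADKO, with a log2 fold change of -0.19 (SE 0.13, edgeR adjusted p = 0.29). It had the fewest reads of the members, 79 to 137 per library, and *Tiam2* on the opposite strand shares 59.0% of its canonical transcript. The fold change of *Tfb1m* matched that of *Polg* in size, but its standard error was larger.

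*Lrpprc*, which keeps mitochondrial mRNAs stable, is found at chromosome 17, 85012670 to 85098279, minus strand. It was at 73.0, 64.8, 64.7, 63.0, 51.6, 67.7 and 62.4 CPM in fl/fl replicates 1 to 7. The iADKO mice, replicates 1 to 6, had 53.6, 47.0, 51.4, 52.5, 57.4 and 63.5 CPM. The genotypes overlapped at fl/fl replicate 5, the lowest control, and iADKO replicate 6, the highest of its genotype. The log2 fold change was -0.24 (SE 0.080, edgeR adjusted p = 0.0375). The call was kept in 4 of 13 fits that each left out 1 mouse, those without fl/fl replicate 5 or 7 or iADKO replicate 5 or 6, and the adjusted p ran from 0.00517 to 0.0864. *Slirp*, whose product binds LRPPRC, averaged 21.7 ± 2.76 CPM in fl/fl and 20.9 ± 1.27 CPM in iADKO, with a log2 fold change of -0.05 (SE 0.083, edgeR adjusted p = 0.654).

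**Figure D2:**
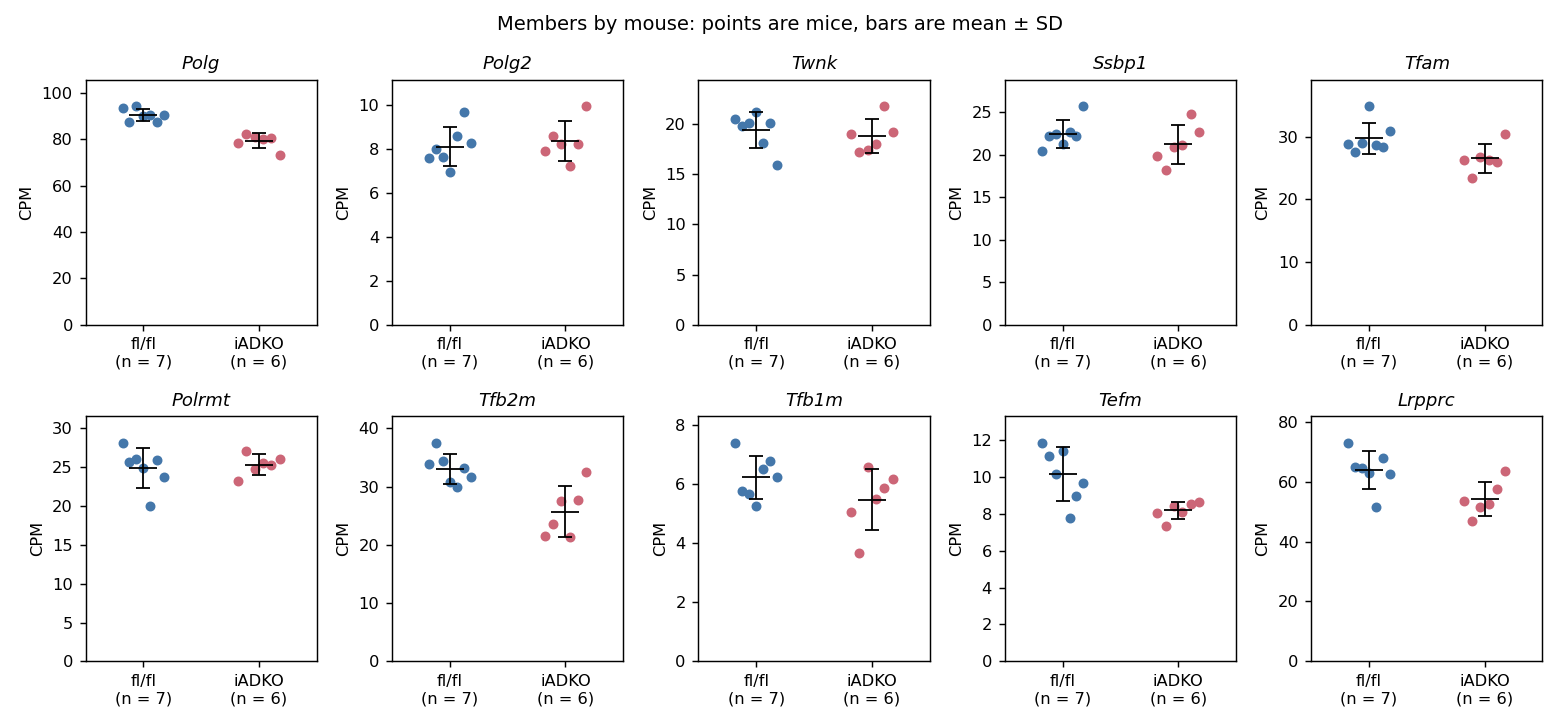
Each panel shows the CPM of a member in every mouse, with genotype on the horizontal axis and bars for the mean ± SD of 7 fl/fl and 6 iADKO mice. After TMM normalization the genotypes separate fully for *Polg*, at 87.6 to 94.4 CPM against 73.2 to 82.4 CPM, and overlap for the other 9 members.

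The same mice did not set every member's range. Fl/fl replicate 5 was the lowest control for *Tfb2m*, *Tefm*, *Polrmt* and *Lrpprc*, and iADKO replicate 6 was the highest of its genotype for *Tfb2m*, *Tefm*, *Tfam*, *Polg2* and *Lrpprc*. For *Polg*, iADKO replicate 6 was instead the lowest mouse of all. Counted per mouse, between 6 and 10 of the 10 members lay below the fl/fl median in iADKO, and between 2 and 7 did in fl/fl. The fl/fl median is made from the fl/fl mice themselves, so these counts are a description.

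The 3 mtDNA-encoded transcripts had larger negative log2 fold changes than any member. mt-Nd1, a subunit of complex I, was at 6218, 4898, 5611, 4120, 2918, 5908 and 4868 CPM in fl/fl replicates 1 to 7. The iADKO mice, replicates 1 to 6, had 3071, 3132, 3434, 2902, 2690 and 4401 CPM. Fl/fl replicate 5 lay among the iADKO mice and iADKO replicate 6 among the controls, and the log2 fold change was -0.59 (SE 0.17, edgeR adjusted p = 0.0184). mt-Co1, the catalytic subunit of complex IV, ranged from 13736 to 24805 CPM in fl/fl (median 20637) and from 10571 to 17525 CPM in iADKO (median 11676), with a log2 fold change of -0.73 (SE 0.17, edgeR adjusted p = 0.00673). mt-Nd5, another complex I subunit, ranged from 2643 to 5642 CPM and from 1881 to 3547 CPM, with a log2 fold change of -0.77 (SE 0.18, edgeR adjusted p = 0.00736). For mt-Co1 5 of 6 iADKO mice and for mt-Nd5 4 of 6 lay below every fl/fl mouse.

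**Figure D3:**
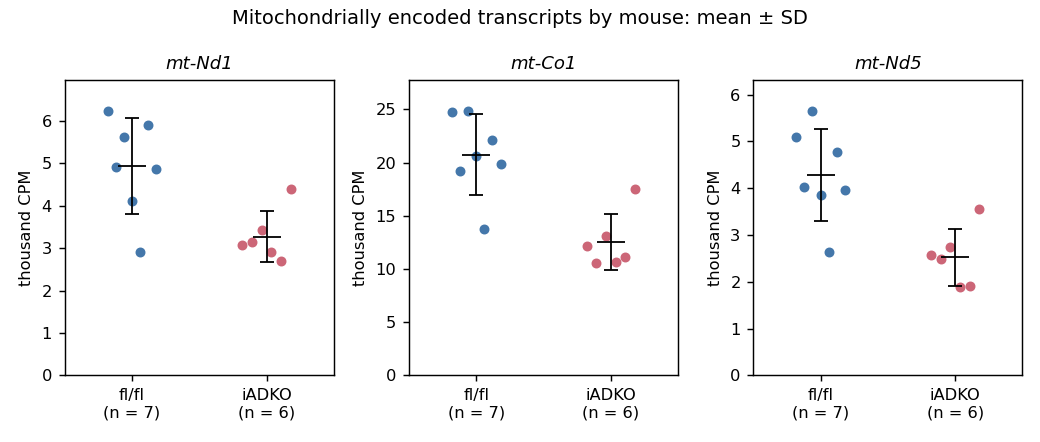
Each panel shows an mtDNA-encoded transcript in multiples of 1000 CPM by genotype, with a point per mouse and bars for the mean ± SD of 7 fl/fl and 6 iADKO mice. The mean of mt-Co1 is 39.6% lower in iADKO and the genotypes overlap in all 3 panels.

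Of the 15 mtDNA-encoded mRNAs and rRNAs 13 were tested and 12 were lower, against 16.3% of all genes tested. mt-Co2 was not past the threshold (edgeR adjusted p = 0.1). Among those lower, mt-Nd3 had 4 to 17 reads per library, mt-Atp6 23 to 56 and mt-Co3 36 to 74. The rRNAs, which lie next to the promoters, had log2 fold changes of -0.23 for mt-Rnr1 and -0.25 for mt-Rnr2, and the mRNAs tested ranged from -0.97 to -0.56. The libraries were enriched for mRNA, so the rRNA counts describe the part that the enrichment left. All mtDNA-encoded genes together held 4.18% ± 0.751 of counts (SD, n = 7) in fl/fl and 2.91% ± 0.58 (SD, n = 6) in iADKO, a difference of -1.27 percentage points (exact two-sided permutation test, p = 0.00932, with 0.000583 the smallest possible). The shares held by the 2 rRNAs alone were 0.0489% and 0.0476% (exact two-sided permutation test, p = 0.551). These shares are of raw counts, whereas the fold changes also carry the TMM factors, 0.892 to 1.02 in fl/fl and 1.05 to 1.10 in iADKO. A copy of mtDNA positions 6390 to 11042 lies on chromosome 1 from 24650616 to 24655269 at 99.9% identity. It covers 31.3% of mt-Co1 and none of mt-Nd1 and mt-Nd5, and genes inside it, such as mt-Co2, had few reads. Without the genes that the copy touches the shares were 1.96% and 1.37% (exact two-sided permutation test, p = 0.0198).

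Within each genotype, the level of each member was compared with the mean log2 level of mt-Nd1, mt-Co1 and mt-Nd5 across mice, which gave 20 relations. Of these 3 had an unadjusted p under 0.05 and 0 passed Benjamini-Hochberg adjustment, where the lowest value was 0.0794. In fl/fl, *Polrmt* had Pearson r = 0.94 (exact permutation p = 0.00397, adjusted p = 0.0794, n = 7) and Spearman rho = 0.86 (exact permutation p = 0.0238, adjusted p = 0.476). *Lrpprc* had r = 0.93 (exact permutation p = 0.00794, adjusted p = 0.0794, n = 7) and rho = 0.64 (exact permutation p = 0.139, adjusted p = 0.695). Without the 2 mice farthest from the member's median, r was 0.66 for *Polrmt* and 0.62 for *Lrpprc*, over 5 mice. In iADKO, *Polg2* had r = 0.84 (exact permutation p = 0.0431, adjusted p = 0.287, n = 6) and rho = 0.60 (exact permutation p = 0.242, adjusted p = 0.807), and without the 2 farthest mice r was -0.17. Fl/fl replicate 5 was the lowest mouse of its genotype in *Polrmt*, *Lrpprc* and all 3 mtDNA-encoded transcripts.

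Marker levels of several cell types moved with genotype beside these transcripts. The summed adipocyte markers were lowest among controls in fl/fl replicate 5, at 16317 CPM, and highest among iADKO mice in replicate 6, at 17958 CPM. The summed macrophage markers were highest among controls in fl/fl replicate 5, at 5195 CPM against at most 3443 CPM in the others, and lowest among iADKO mice in replicate 6, at 3019 CPM against at least 4391 CPM. These are the mice at which the genotypes overlapped in *Lrpprc* and mt-Nd1. With the mean log2 level of the 9 macrophage markers as a covariate, edgeR called 0 of 10 members and 391 of 16753 genes. With that of the 8 adipocyte markers as a covariate, it called 0 members and 6 genes, and *Lrpprc*, *Tefm* and the 3 mtDNA-encoded transcripts changed sign. The adipocyte score was 10.15 to 11.03 in fl/fl and 9.57 to 10.25 in iADKO, overlapping only at fl/fl replicate 5 and iADKO replicate 6. It thus nearly follows genotype, and the 2 can hardly be told apart. At an unadjusted p under 0.05, each of these fits had *Polg* lower and *Polrmt* higher among the members, against 8.37% of all genes lower and 7.83% higher with the macrophage score and 6.4% and 6.71% with the adipocyte score. The log2 fold change of *Polg* was -0.22 with the macrophage score and -0.23 with the adipocyte score (edgeR adjusted p = 0.063 and 0.237). That of *Tfb2m* was -0.14 and -0.06 (edgeR adjusted p = 0.586 and 0.925).

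Other marker lists moved as well, and their part in the results was not tested. Of 4 brown adipocyte markers 2 were lower in iADKO, with summed levels of 19.03 to 103 CPM in fl/fl and 9.05 to 40.7 CPM in iADKO. Of 5 endothelial markers 2 were lower, at 664 to 890 CPM and 656 to 775 CPM. Higher were 3 of 6 T cell markers, at 17.1 to 29.3 CPM and 31.9 to 37.0 CPM, 2 of 5 B cell markers, at 20.8 to 57.5 CPM and 38.0 to 84.2 CPM, and 2 of 4 mammary epithelial markers tested, at 11.1 to 32.0 CPM and 21.4 to 135 CPM. Of 7 proliferation genes 6 were higher, with summed levels of 73.3 to 102 CPM in fl/fl and 97.2 to 132 CPM in iADKO.

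The library names carry animal numbers, which fall into runs of neighbouring numbers, although the labels give all mice the same batch. Runs that held both genotypes were few. In the run with fl/fl replicates 4 and 5 and iADKO replicates 4 and 6, the difference in mean log2 CPM was -0.24 for *Polg*, -0.20 for *Tfb2m*, -0.16 for *Tefm* and 0.02 for *Lrpprc*. For mt-Nd1, mt-Co1 and mt-Nd5 it was 0.04, -0.30 and -0.31 there. In the run with fl/fl replicates 1, 2 and 3 and iADKO replicate 2, it was -0.16 for *Polg*, -0.58 for *Tfb2m*, -0.58 for *Tefm* and -0.52 for *Lrpprc*, and -0.83, -1.11 and -0.97 for the same 3 mtDNA-encoded transcripts. With the run as a block edgeR called 0 members and 54 genes, with *Polg*, *Tefm*, *Tfam* and *Tfb2m* lower at an unadjusted p under 0.05, against 12.8% of all genes. Of the 13 mice 8 were in runs of both genotypes. With wider runs, set after seeing the data and holding 11 such mice, *Polg* (edgeR adjusted p = 0.0106) and *Tfb2m* (edgeR adjusted p = 0.0235) were called. *Tefm* (edgeR adjusted p = 0.0566) and *Lrpprc* (edgeR adjusted p = 0.0997) were not. Of the mtDNA-encoded transcripts, mt-Co1 and mt-Nd5 were called there and mt-Nd1 was not.

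The other genes of the pathway were taken from 6 lists of 68 genes, of which 67 were tested. Of these 19 were lower, against 16.3% of all genes, and 7 were higher, against 14.1%, with a median log2 fold change of -0.10. The lists differed in direction among themselves. Nucleotide supply had 6 of 11 lower and nucleoid proteins and proteases 5 of 8, whereas replication and repair had 1 of 13 lower and 3 higher.

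**Figure D4:**
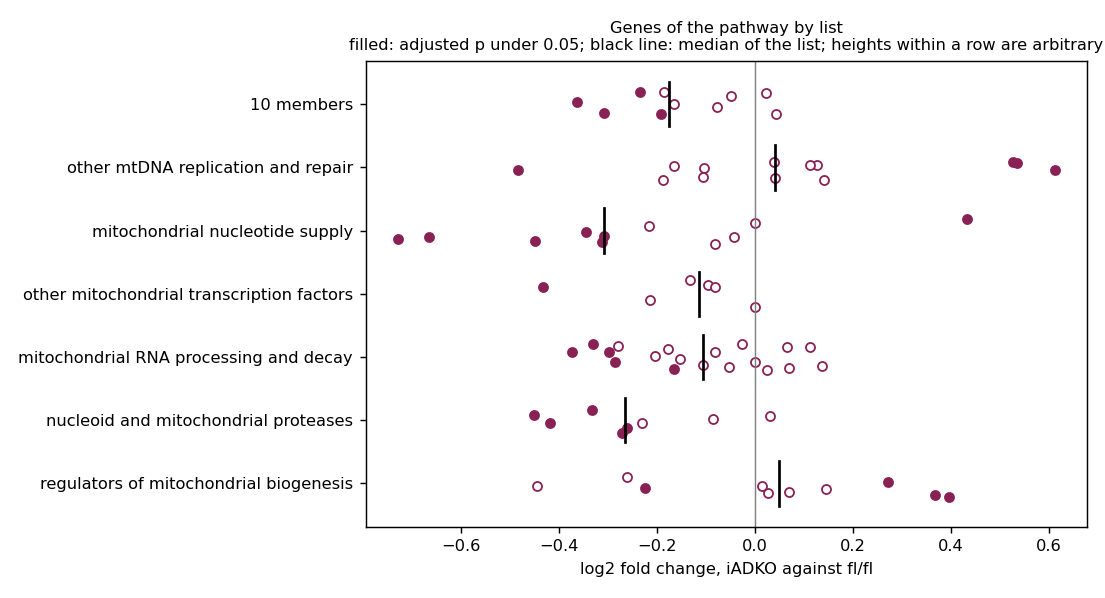
Each point is a gene, placed by its log2 fold change of iADKO against fl/fl on the horizontal axis, with a row for each list, filled points for an adjusted p under 0.05 and a line at the median of the list. The medians run from -0.31 for nucleotide supply to 0.05 for regulators of mitochondrial biogenesis.

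In the list of nucleotide supply, 6 of 11 genes tested were lower and 1 was higher. *Slc25a33*, a pyrimidine nucleotide carrier of the inner membrane, averaged 17.5 ± 2.65 CPM in fl/fl and 10.5 ± 2.11 CPM in iADKO, with a log2 fold change of -0.73 (SE 0.13, edgeR adjusted p = 0.00143). *Sucla2* and *Suclg1* encode subunits of succinyl-CoA ligase, a citric acid cycle enzyme that also partners with nucleoside diphosphate kinase. Their log2 fold changes were -0.66 (SE 0.12, edgeR adjusted p = 0.00193) and -0.45 (SE 0.10, edgeR adjusted p = 0.00504). The remaining lower genes were *Rrm2b*, *Dguok* and *Mpv17*, at log2 fold changes between -0.35 and -0.31. *Samhd1*, a hydrolase of deoxynucleotide triphosphates that is abundant in myeloid cells, rose from 164 ± 25.4 CPM to 221 ± 20.05 CPM. Its log2 fold change was 0.43 (SE 0.094, edgeR adjusted p = 0.00401).

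In the nucleoid and protease list, 5 of 8 genes were lower and 0 higher. *Clpp*, the proteolytic subunit of the matrix ClpXP protease, averaged 36.9 ± 3.72 CPM in fl/fl and 27.0 ± 2.95 CPM in iADKO, with a log2 fold change of -0.45 (SE 0.082, edgeR adjusted p = 0.00161). Its partner *Clpx* was at -0.26 and *Lonp1*, the matrix protease that degrades TFAM, at -0.42 on the log2 scale. Of 19 genes for RNA processing and decay, 5 were lower and 0 higher, among them *Hsd17b10* and *Elac2*, which act in tRNA processing, and *Grsf1* of the RNA granules, at log2 fold changes of -0.37, -0.29 and -0.33. Of the 6 other transcription factors *Mterf2* was lower, at a log2 fold change of -0.43. The genes of the 6 lists named without a standard error were chosen after their values were seen. Those named with one, here and below, were the 5 lowest and 5 highest called genes of the lists. They were thus picked by these same values, which describe them and are no separate test. Only *Slirp*, *Esrra*, *Ppargc1a*, *Nrf1* and *Gabpa* were named by their role.

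In replication and repair, *Endog*, a mitochondrial endonuclease, was the 1 lower gene of 13, averaging 10.9 ± 1.28 CPM in fl/fl and 7.77 ± 1.02 CPM in iADKO, with a log2 fold change of -0.48 (SE 0.10, edgeR adjusted p = 0.00378). The 3 higher genes, *Dna2*, *Mutyh* and *Fen1*, act in nuclear DNA replication and repair as well as in mitochondria. *Dna2* was at a log2 fold change of 0.61 (SE 0.20, edgeR adjusted p = 0.0313), *Mutyh* at 0.54 (SE 0.12, edgeR adjusted p = 0.00492) and *Fen1* at 0.53 (SE 0.093, edgeR adjusted p = 0.00133). *Dna2* ranged from 3.22 to 8.40 CPM in fl/fl and from 6.38 to 9.61 CPM in iADKO. Its call held in 12 alternative fits, was lost in 11 and changed sign in 1. Every iADKO mouse was above every fl/fl mouse for *Mutyh* and *Fen1*, which held for 2.71% of all genes. The proliferation markers given above were higher in the same libraries.

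Among 10 regulators of mitochondrial biogenesis, 1 was lower and 3 were higher. *Esrra*, the estrogen-related receptor that drives oxidative genes, fell from 66.9 ± 5.00 to 57.2 ± 3.77 CPM, with a log2 fold change of -0.23 (SE 0.059, edgeR adjusted p = 0.0115). *Ppargc1a*, its coactivator, had a log2 fold change of -0.44 (SE 0.20, edgeR adjusted p = 0.0976). *Nrf1* and *Gabpa*, which encode activators of many nuclear genes for mitochondria, had log2 fold changes of 0.15 (SE 0.054, edgeR adjusted p = 0.0537) and 0.03 (SE 0.043, edgeR adjusted p = 0.648). *Pprc1*, a relative of *Ppargc1a*, rose from 28.5 ± 2.20 CPM to 37.5 ± 6.47 CPM, a log2 fold change of 0.40 (SE 0.096, edgeR adjusted p = 0.00737). The other higher genes were *Gabpb1* and *Sirt1*, at log2 fold changes of 0.37 and 0.27.

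Set beside other nuclear genes for mitochondria, the members' median of -0.18 was close to that of 77 mitochondrial ribosomal proteins, at -0.20, of which 31 were lower and 0 higher. The 83 nuclear subunits of oxidative phosphorylation tested had a median of -0.37, with 62 lower and 1 higher. These medians are descriptions and their difference was not tested.

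Since NRF1, GABP and ERR binding sites are known in promoters of this pathway, the 250 bases before the canonical start of each member were read from GRCm39 and searched on both strands. The GABP letters CCGGAAG were found before 4 of 10 members and before 9.26% of 14122 promoters of tested genes. None of the members held the NRF1 letters, GCGCA followed by any base and GCGC, or the ERR letters AAGGTCA, which 5.20% and 3.21% of promoters held. Whether these letters go with the fold changes was not tested. The 4 members with GABP letters, *Polrmt*, *Polg2*, *Twnk* and *Ssbp1*, were 4 of the 6 that did not pass the test between genotypes. Their windows of 30 bases are shown 5′ to 3′ on the strand of the gene, because 4 members share the letters, with the match in capitals; CTTCCGG is CCGGAAG read on the other strand.

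*Polrmt*, minus strand, chr10:79582440-79582469: ccctaagagcgCTTCCGGcagtcgcagaac

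*Polg2*, minus strand, chr11:106670374-106670403: cgggtgacgctCTTCCGGgggcgtggtcta

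*Twnk*, plus strand, chr19:44994876-44994905: ctaaccggtgaCTTCCGGttccggggttgt

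*Ssbp1*, plus strand, chr6:40448344-40448373: ggctccgtgcgCCGGAAGcgagccgctggc

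The match began 27 to 50 bases before the start in these 4 genes. The last 100 bases before the start, which hold the match, overlap an annotated exon in *Polg2*, *Twnk* and *Ssbp1* but not in *Polrmt*. For comparison the last 100 bases before the start are given for *Tefm* and *Lrpprc*, members that were lower in iADKO and whose stretch overlaps no annotated exon. Neither stretch holds any of the 3 motifs, which says only that these letters are not in this window.

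*Tefm*, minus strand, chr11:80033840-80033939: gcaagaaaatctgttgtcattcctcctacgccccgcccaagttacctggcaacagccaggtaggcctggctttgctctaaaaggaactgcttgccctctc

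*Lrpprc*, minus strand, chr17:85098280-85098379: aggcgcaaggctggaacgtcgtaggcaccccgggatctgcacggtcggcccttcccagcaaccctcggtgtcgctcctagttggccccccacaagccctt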

How the data were processed

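Whole pmWAT of 7 fl/fl and 6 iADKO mice was compared, with genotypes taken from the labels. The authors deposited 2 kinds of value, the raw count of reads on each gene and log2 values made from them with DESeq2's regularized log. Per the labels and the study's methods, strand-specific mRNA libraries with paired 100 bp reads were checked with FastQC 0.12.1 and aligned with STAR 2.7.11a to mm39. The counting tool, annotation and handling of reads that map to several places are not given in the sources used here.

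Low counts were removed by filterByExpr of edgeR 4.0.16 (R 4.3.3), and the genes left were normalized by TMM and tested with the robust quasi-likelihood test, with adjustment over all 16753 genes. Log2 CPM used a prior count of 2. GENCODE vM39 held 33184 of the identifiers and gave positions and canonical transcripts. On simulated counts for 16753 genes, edgeR recovered 55% of changes of 0.5 and 88% of changes of 1 on the log2 scale, with 2.05% false calls, and DESeq2 71% and 93% with 17.6% false calls. The members' log2 fold changes, -0.36 to 0.04, were all smaller in size than those simulated. These rates therefore do not say how often changes of that size are recovered. Within a genotype, the chi-square between any 2 mice was 8.90 to 98.7 times its degrees of freedom, so no library was a copy. P-values rest on the spread between mice, which includes counting error.

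Nuclear copies were found with megablast (BLAST 2.17.0) at 1000 bases and 99% identity, and copies of members at 95%. Exact tests of the shares ran over all 1716 splits of the mice, and those of the correlations over all 5040 pairings in fl/fl and 720 in iADKO. The genes named were *Lmna*, the members, mt-Nd1, mt-Co1, mt-Nd5, *Slirp*, *Ppargc1a*, *Nrf1*, *Gabpa*, *Esrra*, and the 5 highest and 5 lowest called genes of the other lists. Members and lists were chosen with earlier results of these data known. Alternatives were DESeq2's size factors, DESeq2 1.42.0, limma 3.58.1 on the log2 values, other filters, normalization without mtDNA-encoded genes, blocks, marker scores as covariates and each mouse left out.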

Additional observations from a re-analysis of the deposited data

Results flagged for a closer look

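In 28 groups of mice, each a genotype and one of the members, the 3 mtDNA-encoded transcripts or *Slirp*, the highest and lowest mouse were compared with the rest by Dixon's gap test at the 95% level, which chance passes in about 1 of 20 groups. *Ssbp1* in fl/fl replicate 7 stood above the other 6 controls at 25.8 CPM, with a gap of 0.582 of the range against a critical value of 0.568. mt-Co1 in iADKO replicate 6 stood above the other 5 iADKO mice at 17525 CPM, with a gap of 0.633 against 0.625. The other groups gave no such mouse.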

How the results depend on the processing

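Of the 10 members 4 were lower in iADKO, and the count was also 4 with DESeq2's size factors, with the DESeq2 Wald test, with limma on the deposited log2 values, at 10 or more counts in every library and without mtDNA-encoded genes in the normalization, and 3 with no filter. A block for the replicate number, which has no partner for fl/fl replicate 7, gave 2 members lower, *Tfb2m* and *Polg*. The deviations of same-numbered mice had a mean correlation of 0.107, against -0.02 for other pairs. It was over 0.1 in 3 of 6 pairs (range -0.03 to 0.22), and 2 iADKO mice correlated best with their own number. The labels do not say what the numbers share, so they were not read as pairs. Wider runs of animal numbers as a block, added after seeing the data, gave 2. Runs of animal numbers, the macrophage score and the adipocyte score gave 0 members lower, 0 pathway genes lower, 0 higher and 0 of the 3 mtDNA-encoded transcripts, with 54, 391 and 6 genes called over all genes in place of 5104; the cause was not tested. Leaving out 1 mouse at a time gave 2 to 5 members lower, with 2 without fl/fl replicate 1, 2 or 4 or iADKO replicate 1, 2 or 4, and *Tfb2m* and *Polg* called in all 13.

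Signs that changed were those of values near 0 or under the covariates. With 1 mouse left out *Polrmt* ran from -0.0189, without fl/fl replicate 5, to 0.0547 and *Polg2* from -0.014, without iADKO replicate 6, to 0.0904. With the macrophage score *Twnk* was 0.10, *Lrpprc* 0.0244 and *Slirp* 0.11. With the adipocyte score *Twnk* was 0.0015, *Tefm* 0.0822, *Lrpprc* 0.16, mt-Nd1 0.42, mt-Co1 0.16, mt-Nd5 0.29, *Slirp* 0.25, *Esrra* 0.0213, *Endog* 0.0054, *Suclg1* 0.13, *Dna2* -0.24 and *Samhd1* -0.10. With runs as a block *Gabpa* was -0.0273. All are log2 fold changes. *Tfb1m*, with 79 to 137 reads per library, was the least precise member.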
